A study of Homo sapiens with 24 samples.

Results

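Small nucleolar RNAs (snoRNAs), the small Cajal body RNAs (scaRNAs) and the genes that carry them in their introns were followed on 24 Affymetrix HG-U133 Plus 2.0 microarrays. The members were all probe sets whose only gene symbol in the platform annotation begins with SNORA, SNORD, SCARNA or SNHG, or is GAS5. This gave 35 probe sets of 28 genes, of 54675 probe sets in all and of 41097 (19775 genes) with a single symbol. There were 14 probe sets of 11 SNHG genes, 13 of 10 SNORA genes, 4 of 3 SNORD genes, 3 of 3 SCARNA genes and 1 of GAS5. A further 144 probe sets carry a matching symbol together with another gene's and were not counted as members.

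The study depleted mitochondrial DNA (mtDNA) in human cells in a pair of ways, with 3 arrays in each of 8 groups. HEK293 cells, a line of embryonic kidney origin, carried a dominant-negative form of the mtDNA polymerase (DN-POLG) that doxycycline switches on, and were taken after 3, 6 or 9 days of doxycycline and before it (day 0). A derivative, AOX/NDI1, carried the same DN-POLG transgene together with an alternative oxidase and a yeast NADH dehydrogenase, which restore NADH oxidation without the respiratory chain, and was taken at day 9 and at day 0. The 143B osteosarcoma line was compared as its rho0 derivative, which has no mtDNA, with the parental rho+ cells. All groups grew in high-glucose medium with uridine and pyruvate. The HEK293 groups share 1 inducible system, and the rho0 cells are 1 long-term line, so the loss of mtDNA cannot be told apart from other differences between the rho0 and rho+ lines. In HEK293, doxycycline itself, DN-POLG expression and time in culture likewise cannot be told apart from mtDNA loss. No group had doxycycline without DN-POLG or the same time without doxycycline. Flasks were pooled for days 6 and 9, the p-values measure only the spread between these cultures, and fewer cells with an RNA cannot be told apart from less RNA per cell.

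Box C/D snoRNAs (SNORD) guide the methylation of ribosomal RNA and box H/ACA snoRNAs (SNORA) guide its pseudouridylation, while scaRNAs do the same for spliceosomal RNAs in Cajal bodies. In human cells most of them are cut out of introns after the host transcript is spliced, and the hosts are either protein-coding genes, often of ribosomal proteins, or long noncoding RNAs such as GAS5 and the SNHG genes, whose spliced exons are often degraded by nonsense-mediated decay. The arrays were labelled from poly(A) tails, which mature snoRNAs lack, and the annotation does not say whether a probe set with a snoRNA's symbol reads the small RNA, its intron or its host.

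By position in the RefSeq annotation (GRCh38.p14), SNORA72 lies in the ribosomal protein gene RPL30, SNORA21 in RPL23 and SNORA65 in RPL12. SNORA78 lies in SNHG9, SNORA17B in SNHG7, SNORA71A and SNORA71B in SNHG17, SNORA74A in SNHG4 and in MATR3, SCARNA15 in SNHG21 and in FSD2, and SCARNA17 in SNHG22. SNORD8 lies in CHD8, SNORD89 in RNF149, SNORA37 in MBD2 and SNORD114-3 in MEG8, and no gene encloses SCARNA2. GAS5 encloses 11 annotated snoRNAs. Of the 28 member genes, 11 have an entry in the RefSeq promoter table, and the starts of GAS5 and 5 SNHG genes described here are printed to show how far they share a pyrimidine run at the transcription start, a feature of many snoRNA host genes and ribosomal protein genes.

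The lines give 50 bases before and 50 bases from the annotated start on, 5′ to 3′ on the gene's strand. Capitals mark the longest run of C and T between 10 bases before the start and 30 bases after it.
SNHG4 (chr5:139274051-139274150, plus strand): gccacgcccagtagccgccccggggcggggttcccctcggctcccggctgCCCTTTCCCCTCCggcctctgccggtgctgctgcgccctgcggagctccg
SNHG32 (chr6:31834866-31834965, plus strand): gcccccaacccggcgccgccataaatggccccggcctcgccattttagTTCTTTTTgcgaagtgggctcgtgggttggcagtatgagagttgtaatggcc
SNHG19 (chr16:2155309-2155408, minus strand): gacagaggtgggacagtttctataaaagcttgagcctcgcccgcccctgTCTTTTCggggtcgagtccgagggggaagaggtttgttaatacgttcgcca
SNHG17 (chr20:38435279-38435378, minus strand): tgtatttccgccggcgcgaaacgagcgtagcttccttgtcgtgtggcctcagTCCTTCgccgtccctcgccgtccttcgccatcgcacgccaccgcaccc
GAS5 (chr1:173868996-173869095, minus strand): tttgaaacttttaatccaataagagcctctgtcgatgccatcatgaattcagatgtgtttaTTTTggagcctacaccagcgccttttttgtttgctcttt
SNHG27 (chr4:131764788-131764887, plus strand): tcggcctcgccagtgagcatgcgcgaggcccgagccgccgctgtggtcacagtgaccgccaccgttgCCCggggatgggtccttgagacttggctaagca

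The run was 13 bases long in SNHG4, starting at the first transcribed base, and 2.23% of the 35116 promoters in the table hold one as long in the same window. It was 8 bases in SNHG32 (15.3% of promoters), 7 in SNHG19 (23.2%) and 6 in SNHG17 (36.0%). In GAS5 it was 4 bases (77.4%) and in SNHG27 3 bases (93.8%), against a median of 5 over all promoters. SNHG33, not printed, has a pair of annotated starts, with runs of 5 (55.7%) and 4 bases (77.4%). A run is a description of the letters in this window only. No other start of these genes was read, so a run at another start, in GAS5 too, would be missed.

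A group was called near background for a probe set when its mean log2 signal lay under the median log2 signal of all probe sets on the arrays of that line, which is 6.06 for HEK293 (signal 66.9) and 6.46 for 143B (signal 87.8). Near background in all 8 groups were 6 probe sets, those of SNHG22, SNHG24, SNHG28, SNORA17B, SNORA37 and SNORD114-3. Above it in every group were 11 probe sets of 9 genes, GAS5, SCARNA15, SNHG17, SNHG19, SNHG32, SNHG33, SNORA21, SNORA68 and SNORD89. The other 18 probe sets, of 13 genes, were near background in some groups. Per group, 19 to 21 of the 35 were near background in HEK293, against 12 in 143B rho0 and 11 in 143B rho+. By definition the limit splits the signals of all probe sets over the arrays of a line evenly. The share of all probe sets near background in each group was not computed.

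**Figure D1:**
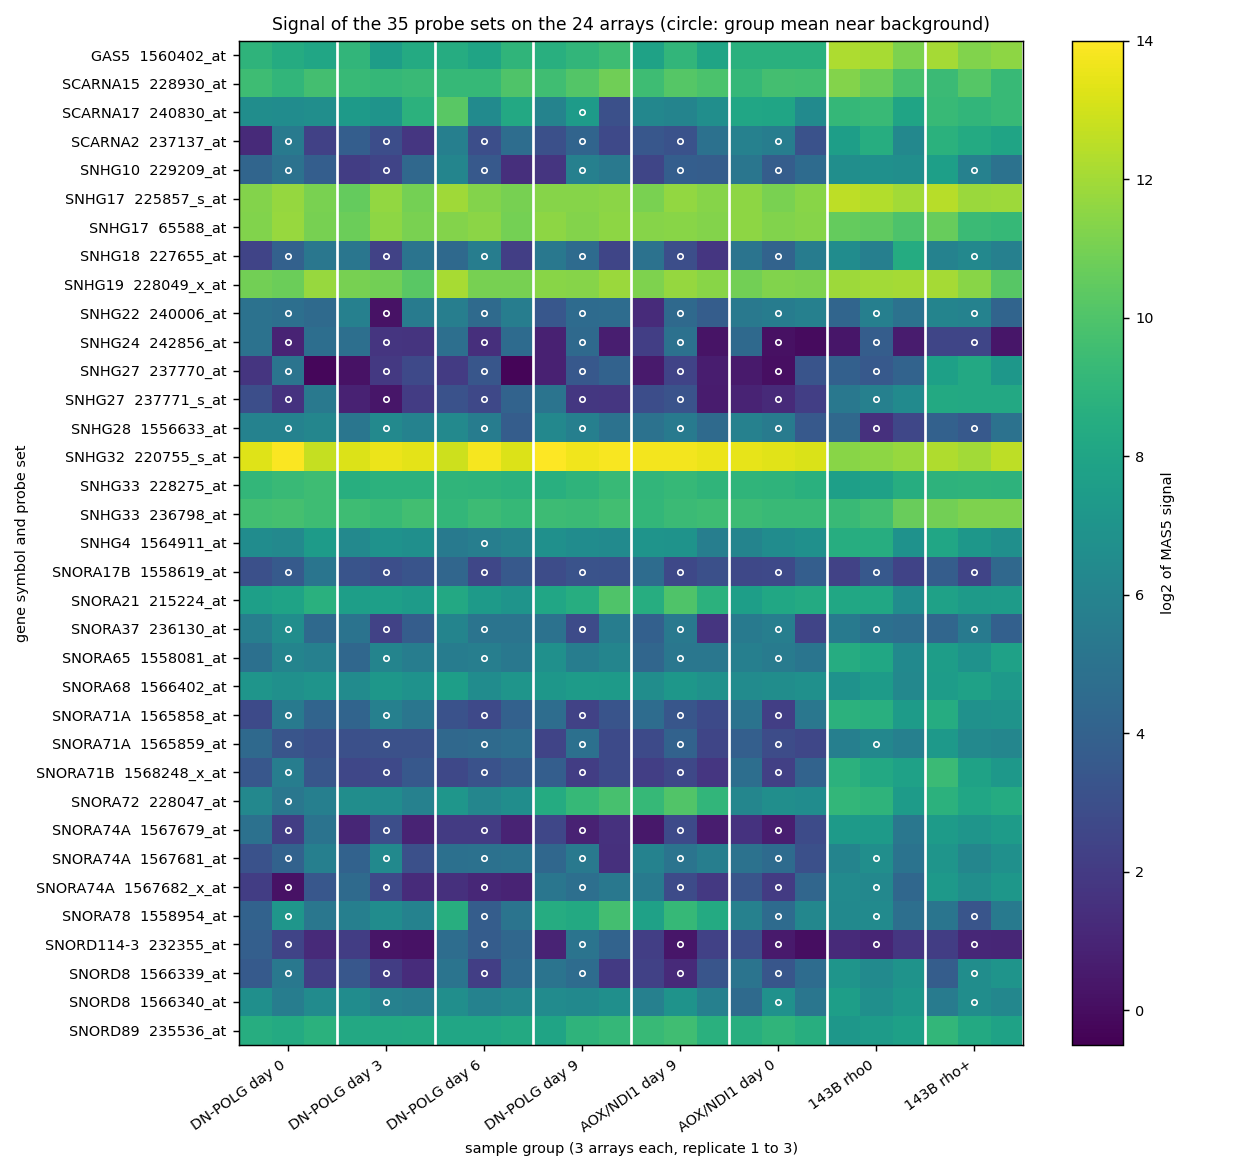
Each row is a probe set and each column an array, in 8 groups of 3 arrays, with the log2 of the deposited signal as colour and a white circle where the group mean was near background. Circles fill all groups in 6 rows and no group in 11 rows, and SNORA72 and SNORA78 are brighter at day 9 than at day 0 in both HEK293 models.

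The background calls of the members differed between the cell lines. The share of all probe sets with the same pattern was not computed, so these counts describe the members alone. In all 6 HEK293 groups 18 probe sets were near background, and 4 of these were above it in both 143B groups, those of SCARNA2, SNORA71A (1565858_at), SNORA71B and SNORA74A (1567679_at). SCARNA2, a guide RNA for U2 snRNA, had signals of 201, 367 and 76.9 in 143B rho0 and 428, 334 and 253 in 143B rho+ cells, and of 2.35 to 58.3 on the 18 HEK293 arrays. SNORA71B gave 452, 305 and 227 in rho0 and 657, 236 and 151 in rho+ cells, and 3.46 to 49.7 in HEK293. Another 8 of the 18 were above background in 1 of the 143B groups, and no probe set was above it in all HEK293 groups and near it in both 143B groups. GAS5, whose RNA builds up when growth stops, ranged by its only member probe set over 2235 to 4819 in 143B and 192 to 711 in HEK293. The lines differed in RNA quality as given in the next paragraph, and these levels are set side by side without a test.

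The labels were checked on a few genes. Of 3 POLG probe sets, 1 read 280.1 to 421 at DN-POLG day 0 and 2834 to 4739 at days 3 to 9, while a second read 643 to 1295 at day 0 and 959 to 2283 at days 3 to 9. In AOX/NDI1 cells at day 9 the first read 4035 and 2468 in replicates 1 and 2 and 447 in replicate 3, against 197 to 274 at day 0, so replicate 3 had the smallest rise. COX2, an mtDNA gene, gave by 1 of its probe sets signals between 1.33 and 48.2 in rho0 cells and between 28869 and 31300.4 in rho+ cells. The same probe set gave 12674 to 16081 at AOX/NDI1 day 9, all arrays included, against 32592 to 37088 at day 0. At DN-POLG day 9 it gave 10718.5 to 13152, against 35825.5 to 53939.5 at day 0. Of 7 HEK293 markers, 6 are on the array, and EYA1, NEFL, PAX2 and SALL1 were above background in every HEK293 group, PAX2 and SALL1 in both 143B groups too and LHX1 in rho0, with a list sum of 8852 to 20376 in HEK293 and 897 to 1873 in 143B. The 9 markers listed for 143B, such as COL1A1 and SPARC, summed to 59178 to 159565 in 143B and 4666 to 17019 in HEK293, where 5 of them were above background in each group, against 7 in each 143B group. For the 3 haematopoietic markers on the array (of 4 listed) the sum was 44.0 to 149 over all arrays, with none above background. The ratio of the 3′ to the 5′ probe set of ACTB, a sign of RNA integrity, was 1.05 to 1.81 on 17 HEK293 arrays and 8.92 on replicate 1 of DN-POLG day 6. The rho0 arrays had ratios of 5.53 to 8.12 and the rho+ arrays of 10.4 to 17.1.

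For the comparisons, 16 member probe sets of 14 genes passed the same limit as a filter on the mean over the HEK293 arrays, and 21 of 19 genes over the 143B arrays. The 19 and 14 left out were not tested, and passing through a group where the signal is high favours a difference, so the counts below describe the tested members alone. At DN-POLG day 9 against day 0, 2 of the 16 rose and 0 fell by limma (adjusted p under 0.05 over 22246 probe sets), where 8.74% of all tested probe sets passed, 2.41% as higher and 6.33% as lower. The median log2 fold change was 0.31 over the 16 members and 0.01 over all probe sets tested. At AOX/NDI1 day 9 against day 0, 1 of 16 rose and 0 fell, where 12.4% of all passed, 2.62% as higher and 9.78% as lower, with medians of 0.29 and -0.04. The members that passed were SNORA72, in both models, and SNORA78, in DN-POLG cells only. SNORA78 reached the filter through its day 9 groups, as given below.

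The probe set of SNORA72 (228047_at), a box H/ACA snoRNA from an intron of RPL30, changed in both HEK293 models. Its signals were 77.5, 37.4 and 54.4 at DN-POLG day 0, 96.6, 94.6 and 57.6 at day 3, 138, 71.5 and 96.0 at day 6 and 336, 603 and 869.8 at day 9. Every day 9 array lay above every array of the earlier days. In AOX/NDI1 cells the signals were 592, 1068 and 518 at day 9, against 72.4, 102 and 92.4 at day 0, again without overlap. The log2 fold change was 3.38 in DN-POLG cells (standard error 0.38, adjusted p = 1.31e-04 from limma, n = 3 each). Since day 0 lay near background there, with 2 of its 3 arrays under the limit, the difference is given as at least 7.98-fold. Such a bound sets the brighter group's mean against the dimmer group's with each of its arrays raised to the limit where it lay below. In AOX/NDI1 cells, where no day 0 array lay under the limit, it was 2.97, or 7.83-fold (standard error 0.38, adjusted p = 1.89e-04).

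At DN-POLG day 3 the log2 difference of SNORA72 from day 0 was 0.58 and at day 6 it was 0.86 (adjusted p = 1.00 and 0.277), and the arrays overlapped. The responses of the AOX/NDI1 and DN-POLG cells differed by -0.41 (standard error 0.54, adjusted p = 0.999). Without replicate 3 of AOX/NDI1 day 9, the array with the smallest POLG rise, the AOX/NDI1 log2 fold change was 3.17 (adjusted p = 6.44e-04). The ACTB ratio was 1.06 to 1.77 at DN-POLG day 9 and 1.08 to 1.75 at day 0, and 1.27 to 1.52 at AOX/NDI1 day 9 and 1.14 to 1.18 at day 0, and its part in the AOX/NDI1 result was not tested. In 143B the probe set gave 546, 491 and 175 in rho0 and 450.3, 274 and 343 in rho+ cells, a log2 difference of 0.05 (standard error 0.45, adjusted p = 0.959).

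The host gene's own probe set had smaller fitted differences, and neither passed. RPL30, a protein of the large ribosomal subunit, gave 45923, 35925 and 39581 at DN-POLG day 9, against 26005, 33761 and 30048 at day 0. The AOX/NDI1 cells had 35381, 39322 and 36345 at day 9, against 27801, 31031 and 27071 at day 0. In both models no day 9 array overlapped day 0, and the log2 differences were 0.44 in DN-POLG cells (standard error 0.19, adjusted p = 0.181) and 0.37 in AOX/NDI1 cells (adjusted p = 0.218). The difference between the changes of the 2 probe sets was not tested.

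**Figure D2:**
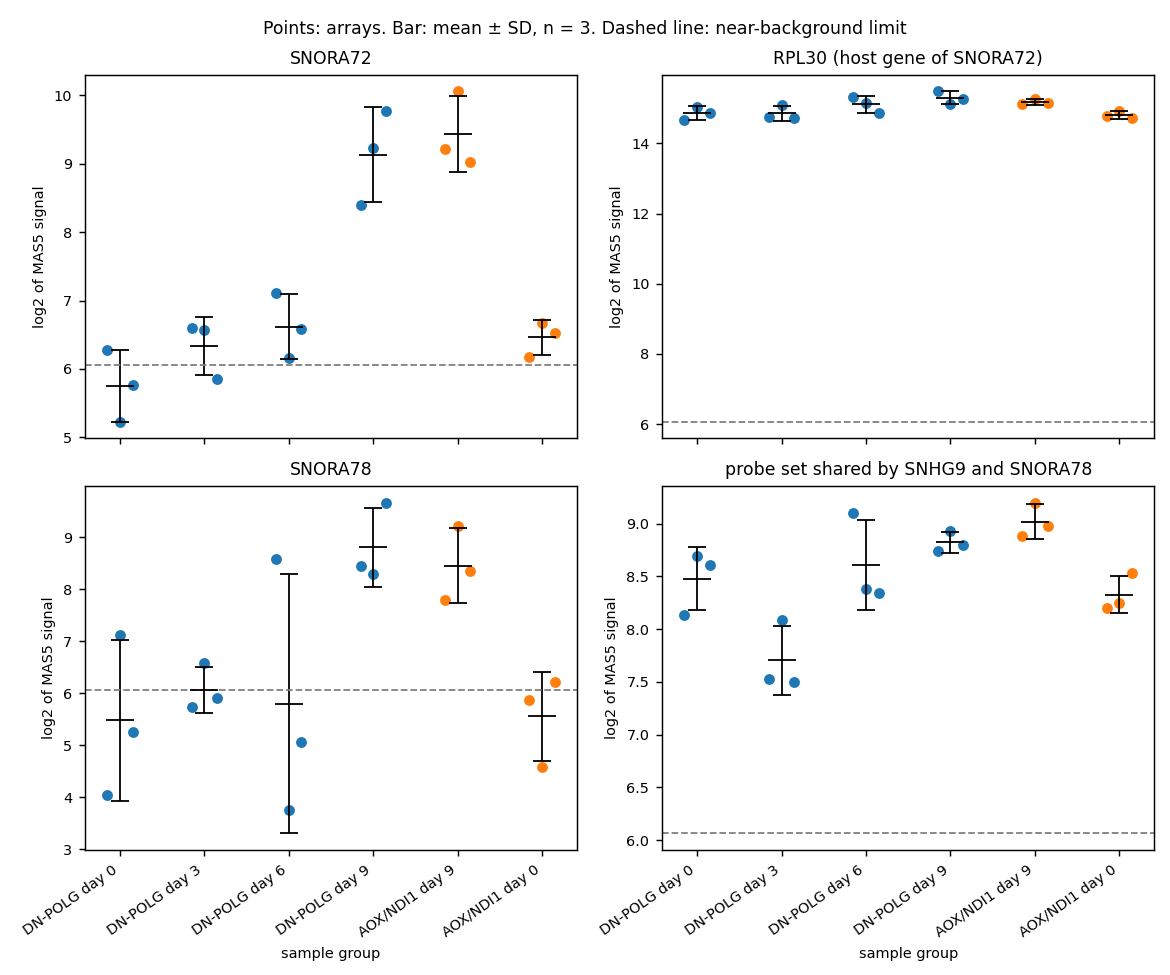
Points are arrays, bars the mean and SD of log2 signal (n = 3), and the dashed line the near-background limit, for SNORA72 and SNORA78 (left) and for RPL30 and the probe set shared by SNHG9 and SNORA78 (right). SNORA72 lies at 336 to 869.8 in signal at DN-POLG day 9 and 518 to 1068 at AOX/NDI1 day 9, above every earlier array of its model, while RPL30 stays between 26005 and 45923 in the 6 HEK293 groups drawn.

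The probe set of SNORA78 (1558954_at), a box H/ACA snoRNA from the noncoding host SNHG9, was also higher at day 9, with a wider spread between arrays. Its signals were 16.5, 139.8 and 38.5 at DN-POLG day 0, 53.2, 95.4 and 60.0 at day 3, 382, 13.5 and 33.7 at day 6 and 352, 313 and 815 at day 9. Day 9 did not overlap day 0, and the high array of day 6 is replicate 1, the one with the ACTB ratio of 8.92. The log2 fold change at day 9 was 3.33 (standard error 0.95, adjusted p = 0.0383 from limma), given as at least 5.24-fold because 2 of the 3 day 0 arrays lay under the limit. SNORA78 reached the filter through its day 9 groups, as the mean log2 signal of the other HEK293 groups was 5.48 to 6.07 against a limit of 6.06. The call did not hold with no filter (adjusted p = 0.110), with only the arrays compared (0.0670), in the methods' own test (0.0851) or with the replicate number as a block (0.0857). It was also lost without any one of DN-POLG day 0 replicates 1 and 3 and day 9 replicates 1 to 3 (0.0681 to 0.156).

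In AOX/NDI1 cells SNORA78 gave 221, 598 and 329 at day 9, against 58.7, 23.9 and 74.2 at day 0, without overlap. Day 0 was near background here too, with 2 of its 3 arrays under the limit, which gives at least 5.08-fold. The measured log2 difference of 2.90 (standard error 0.95) missed the threshold (adjusted p = 0.0561). With DN-POLG day 6 replicate 1 left out it passed (0.00918), where 18.2% of all tested probe sets did, against 12.4% with every array. The responses of the 2 models differed by -0.42 (standard error 1.34, adjusted p = 0.999). A second probe set that carries the symbols of both SNHG9 and SNORA78 gave 428, 487 and 445 at DN-POLG day 9, against 281, 413 and 389.5 at day 0, and 471, 589 and 506 at AOX/NDI1 day 9, against 294, 304 and 369.7 at day 0. Its log2 differences of 0.35 and 0.69 were not tested, as it has more than 1 symbol. In 143B SNORA78 was near background in both groups.

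None of the other tested members passed at day 9. The 14 in DN-POLG cells lay between -1.12 (SCARNA17) and 0.77 (SNORA21) in log2 fold change, with adjusted p from 0.152 to 0.954, and 10 were positive. The 15 in AOX/NDI1 cells, SNORA78 among them, had adjusted p from 0.0561 to 0.981, and 11 were positive.

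**Figure D3:**
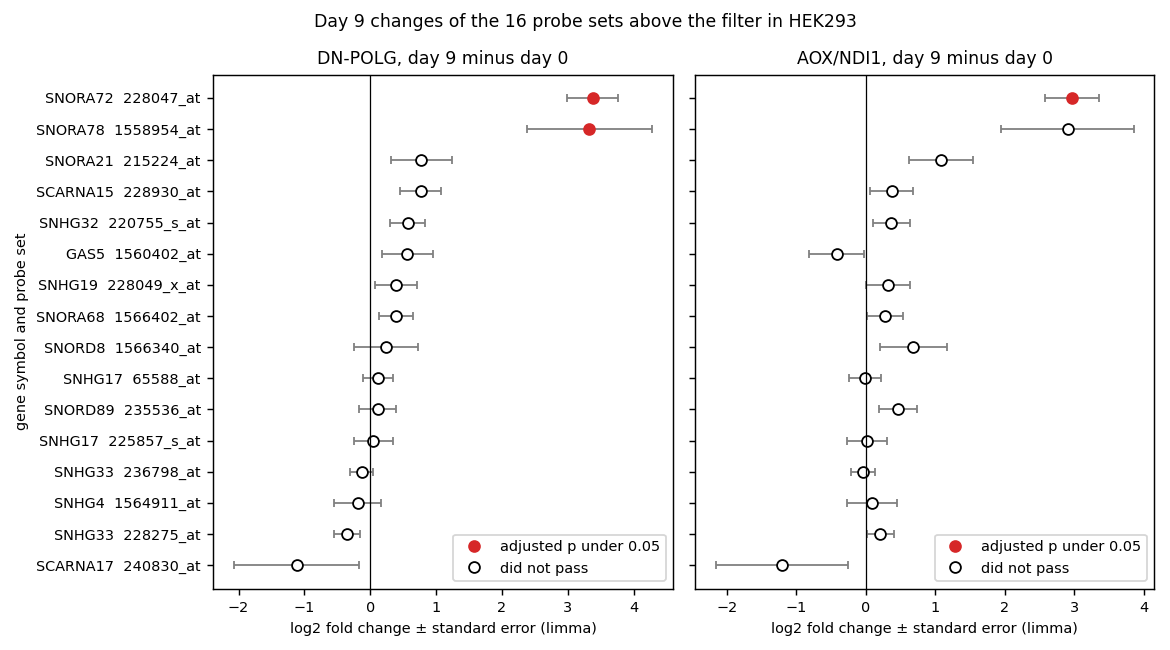
Log2 fold change with its standard error from limma for the 16 tested probe sets at day 9 against day 0 in DN-POLG (left) and AOX/NDI1 cells (right), with filled points for adjusted p under 0.05. SNORA72 stands at 3.38 and 2.97 and SNORA78 at 3.33 and 2.90, and SNORA21, next below them, at 0.77 and 1.09.

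SNORA21 (215224_at), a box H/ACA snoRNA from RPL23, gave 378, 1009 and 458 at AOX/NDI1 day 9, against 199.9, 282 and 325 at day 0. These arrays did not overlap, but the log2 difference of 1.09 did not pass (standard error 0.46, adjusted p = 0.144). At DN-POLG day 9 it gave 270.4, 373 and 1022, against 208, 243 and 411 at day 0, with overlap and a log2 difference of 0.77 (adjusted p = 0.371). SCARNA15 (228930_at) gave 752, 1116 and 1827 at DN-POLG day 9, against 729.6, 533 and 799 at day 0 (log2 difference 0.77, adjusted p = 0.152). At DN-POLG day 9, 3 of 16 were higher and 0 lower without overlap, where 10.1% of all tested probe sets were higher and 14% lower. At AOX/NDI1 day 9 it was 4 of 16 higher and 0 lower, where 23.8% and 29% of all were.

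SCARNA17 (240830_at), which lies in SNHG22, varied widely between the arrays of a group from day 3 on. It gave 96.1, 93.8 and 101 at DN-POLG day 0, 167, 126 and 458 at day 3, 1251, 86.1 and 311 at day 6 and 62.6, 172 and 8.28 at day 9. The highest array is again replicate 1 of day 6, and its ACTB ratio's part in the value was not tested. The log2 differences of SCARNA17 from day 0 were 1.13, 1.73 and -1.12 at days 3, 6 and 9 (standard error 0.95 each), and none passed. Its day 9 group lay near background, with a mean log2 signal of 5.48 against a limit of 6.06.

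None of the tested probe sets of spliced noncoding hosts passed in HEK293 with all arrays. Other hosts, such as SNHG1, SNHG5 and SNHG16, and further GAS5 probe sets carry several symbols and were not tested. SNHG32 (220755_s_at), the host of SNORD48 and SNORD52, gave 17189.9, 13149.9 and 14898 at DN-POLG day 9, against 9857, 15345 and 6860.2 at day 0. AOX/NDI1 cells had 13990.5, 13773 and 12025 at day 9, against 11102, 10326 and 9436 at day 0, the higher group without overlap. Its log2 differences were 0.57 (adjusted p = 0.234) and 0.37 (adjusted p = 0.417), and only without DN-POLG day 0 replicate 2 did the first pass (0.87, adjusted p = 0.0409).

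GAS5 (1560402_at) gave 407, 520.1 and 711 at DN-POLG day 9, against 498, 346 and 272 at day 0, a log2 difference of 0.56 (standard error 0.39, adjusted p = 0.455). AOX/NDI1 cells had 234, 525 and 249.5 at day 9, against 409, 422 and 425 at day 0, a difference of -0.42 (adjusted p = 0.536). The 2 responses differed by -0.98 (standard error 0.55, adjusted p = 0.999), with overlapping arrays in both.

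SNHG17, the host of the SNORA71 family, gave 2633, 2607 and 2891 by 225857_s_at at DN-POLG day 9, against 2503, 3361 and 2138 at day 0. It gave 2193, 3268 and 2594 at AOX/NDI1 day 9, against 3026, 2169 and 2743 at day 0. The log2 differences were 0.05 and 0.02 (standard error 0.29 each), and 0.12 and -0.01 by its other probe set (65588_at), none of which passed. SNHG19 (228049_x_at), the host of SNORD60, gave 2732, 2596 and 3654 at DN-POLG day 9, against 1963, 1695 and 3465 at day 0, a difference of 0.39 (adjusted p = 0.544). At AOX/NDI1 day 9 it gave 2384, 3391 and 2730.0, against 1961, 2443 and 2381 at day 0, a difference of 0.32 (adjusted p = 0.571).

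SNHG33 (236798_at), which encloses SNORA63 family members, had among the closest replicates, with 697, 681 and 780.3 at DN-POLG day 9, against 795, 842 and 726 at day 0, and 543, 674 and 728 at AOX/NDI1 day 9, against 701, 631 and 655 at day 0. Its log2 differences were -0.13 and -0.04 (standard error 0.18 each). SNHG4 (1564911_at), the host of SNORA74A, gave 111, 92.4 and 87.3 at DN-POLG day 9, against 93.7, 79.7 and 179 at day 0 (log2 difference -0.19). It gave 127, 125 and 51.3 at AOX/NDI1 day 9, against 65.5, 92.1 and 112 at day 0 (0.09). Neither gene passed in either model. SNHG28 (1556633_at) was near background throughout, with 11.9 to 81.6 in HEK293 and 2.84 to 31.0 in 143B.

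At the earlier days and at baseline no member passed in limma or in the test the methods name (run on the same values). At DN-POLG day 3 against day 0 the count was 0 of 16, with 1 at an unadjusted p under 0.05 (SNHG33 by 228275_at, log2 difference -0.56), where 0% of all tested probe sets passed. At day 6 it was also 0, with 2 at an unadjusted p under 0.05, where 1.56% passed, 0.36% as higher and 1.2% as lower. The first of these was SNHG4, with 43.5, 51.4 and 62.5 at day 6, against 93.7, 79.7 and 179 at day 0, arrays apart (log2 difference -1.09, standard error 0.35, adjusted p = 0.135). Its day 6 group lay near background, with a mean log2 signal of 5.70 against a limit of 6.06. The other was SNORA72, given above. AOX/NDI1 day 0 against DN-POLG day 0 gave 0 members, with 1 at an unadjusted p under 0.05 (SNHG33 by 228275_at, -0.43), where 0.0045% of all passed, and the difference between the 2 day 9 responses gave 0, also at an unadjusted p under 0.05 (0% passed). Without overlap from day 0 were 1 member higher and 3 lower at day 3, where 3.84% and 1.7% of all were, and 0 higher and 4 lower at day 6, where 4.38% and 7.75% were. In AOX/NDI1 cells at day 0, 0 were higher and 3 lower than at DN-POLG day 0, where 8.31% and 6.11% of all were. The comparisons named here share the DN-POLG day 0 arrays with that of day 9.

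In 143B, 1 of 21 tested members fell in rho0 cells and 0 rose, where 7.82% of all 22511 tested probe sets passed, 2.32% as higher and 5.5% as lower, and 7 members had an unadjusted p under 0.05. The median log2 difference was 0.08 over the members and -0.05 over all probe sets. With each array set to one median, all probe sets had a median difference of 0.26 and 69.1% of calls were higher in rho0, against 29.7% as deposited, so small differences in either direction depend on the scaling.

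The member that fell was SNHG27, a noncoding gene with no annotated snoRNA inside it. Its probe set 237771_s_at gave 39.2, 56.8 and 86.6 in rho0 and 322, 306 and 305 in rho+ cells. The groups were far apart, all 3 rho0 arrays lay under the near-background limit, and the log2 fold change was -2.43 (standard error 0.31, adjusted p = 0.00738 from limma), given as at least 3.54-fold lower. This probe set reached the filter through rho+ cells, with a mean log2 signal of 8.28 against 5.85 in rho0 and a limit of 6.46. The call held without any one of the 6 arrays (adjusted p 0.00122 to 0.0454), but not in the methods' own test (adjusted p = 0.0734). Those runs kept the filter of all arrays, so they do not check its part. With no filter the adjusted p from limma was 0.0450. The second probe set, 237770_at, was under the filter over the 143B arrays and not in the main test. It gave 15.3, 11.7 and 17.6 in rho0 and 212, 305 and 142 in rho+ cells, at least 2.39-fold lower, and passed when no filter was set (adjusted p = 0.0184). On the HEK293 arrays both were near background, at 0.818 to 41.2.

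**Figure D4:**
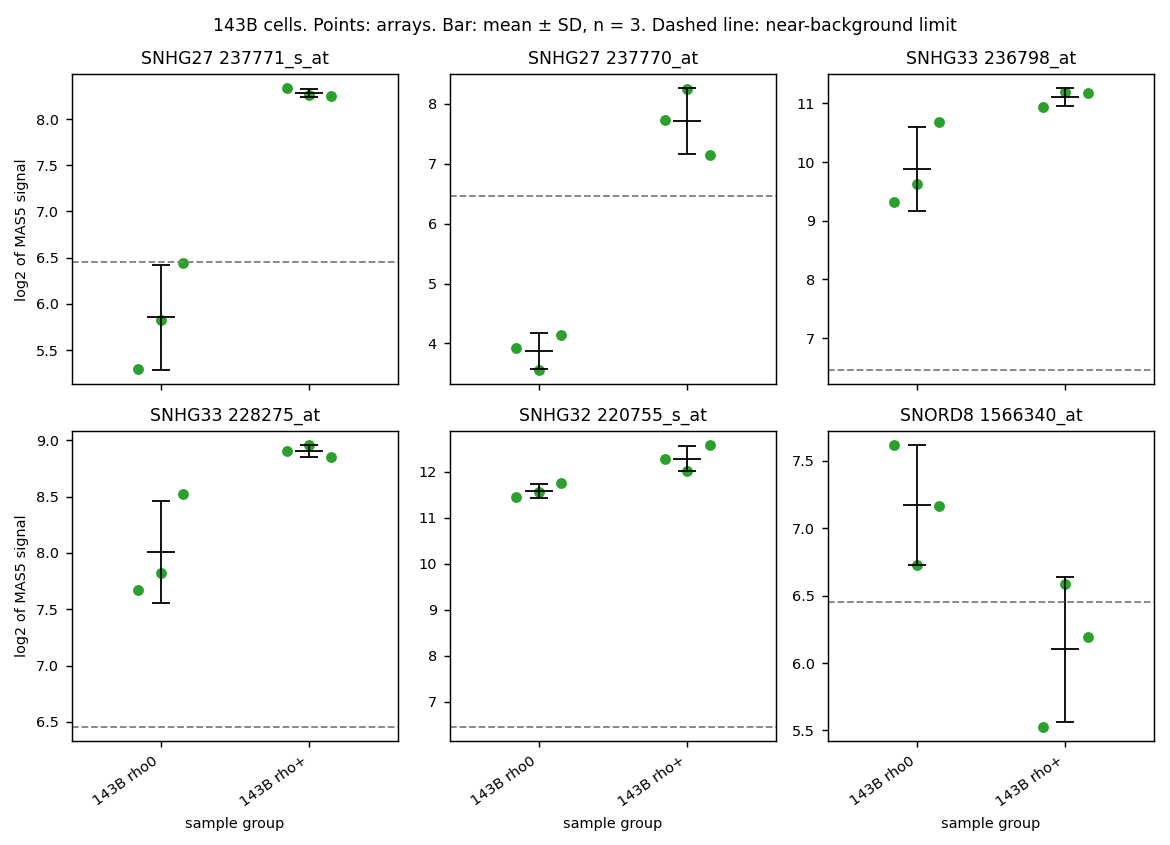
Points are arrays, bars the mean and SD of log2 signal (n = 3), and the dashed line the near-background limit in 143B, with rho0 left of rho+ and a separate axis range in each panel. Both SNHG27 probe sets lie under the limit in rho0 and above it in rho+ cells, and the arrays of SNHG33, SNHG32 and SNORD8 (1566340_at) do not overlap but did not pass the test.

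Several others had arrays apart without passing. SNHG33 gave 636, 795 and 1641 in rho0 and 1950.5, 2348 and 2324 in rho+ cells by 236798_at (log2 difference -1.23, standard error 0.36, adjusted p = 0.0751). By 228275_at it gave 204, 227 and 367 in rho0 and 478, 496 and 463 in rho+ cells (-0.90, adjusted p = 0.0868). In both, replicate 3 of rho0 was the array nearest to rho+. SNHG32 gave 2789, 3019 and 3433 in rho0 and 4928, 4143 and 6107 in rho+ cells (-0.70, adjusted p = 0.115). SNORD89 (235536_at), a box C/D snoRNA from RNF149, gave 145, 177 and 213 in rho0 and 545, 321 and 233 in rho+ cells (-0.97, adjusted p = 0.118).

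One member was apart in the other direction. SNORD8 (1566340_at), a box C/D snoRNA from CHD8, gave 196, 106 and 144 in rho0 and 46.1, 96.1 and 73.2 in rho+ cells (1.07, adjusted p = 0.0972), and passed with arrays set to one median (0.0486). Its rho+ group lay near background. The gene's other probe set, 1566339_at, was under the filter and not tested. In all 5 tested probe sets were lower in rho0 without overlap, where 18.5% of all tested probe sets were, and 1 higher, where 14.5% were. Without replicate 3 of rho0, 6 of the 21 passed in place of 1 (SNHG27, SNHG32 and both of SNHG33 as lower, SNHG4 and SCARNA15 as higher), but so did 26.3% of all tested probe sets, against 7.82% with every array.

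GAS5 gave 4819, 4388 and 2235 in rho0 and 4184, 2479 and 2969 in rho+ cells (log2 difference 0.21, standard error 0.36). SNHG17 gave 5969, 5086 and 4022 in rho0 and 5584, 3577 and 3799 in rho+ cells by 225857_s_at (0.23), and 0.57 by 65588_at. SNHG19 gave 3813, 4029 and 4306 in rho0 and 4227, 2783 and 1209.8 in rho+ cells (0.74), and SNHG4 gave 369, 377 and 118 in rho0 and 266, 142 and 107 in rho+ cells (0.67). None of these passed (adjusted p from 0.300 to 0.748), and all overlapped. SCARNA15 gave 2499, 1717 and 879 in rho0 and 663, 1176 and 615 in rho+ cells (0.99, adjusted p = 0.177). The ACTB ratio was lower in rho0 than in rho+ cells on every array, and its part in these differences was not tested.

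Proteins that build, process or decay around snoRNAs were counted from lists of known function. Over all tested probe sets 8.74% passed at DN-POLG day 9, 12.4% at AOX/NDI1 day 9 and 7.82% in 143B. Probe sets that also carry a snoRNA's symbol were not tested, among them those listed for NOP56 and DKC1. Of the 4 box C/D core proteins, 3 were tested in HEK293 and 1, SNU13, which binds the box C/D kink-turn, rose at day 9 in DN-POLG (log2 fold change 1.75, adjusted p = 0.00310) and in AOX/NDI1 cells (1.99, adjusted p = 9.81e-04) by 1 of its 2 tested probe sets, while the other had 0.15 and 0.44 and did not pass. Of the box H/ACA core proteins, 3 of 4 were tested and none passed in any comparison, and the same held for the 6 of 10 nonsense-mediated decay factors tested. Of 14 assembly and transport factors tested, TGS1, which forms the trimethylguanosine cap, fell at day 9 by 1 of 3 probe sets in DN-POLG (-1.08, adjusted p = 0.00260) and by all 3 in AOX/NDI1 cells (-0.97 to -3.25). The 2 that did not pass in DN-POLG cells had -1.53 and -0.81. SHQ1, a chaperone of the pseudouridine synthase dyskerin, fell in DN-POLG cells by 1 of 2 probe sets (-0.76, adjusted p = 0.0197), the other having -0.62 (adjusted p = 0.0650).

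Of 47 protein-coding host genes listed, 22 were tested in HEK293 by 37 probe sets. At day 9, 2 genes rose in both models by 2 probe sets while 0 fell. Of all tested probe sets, 2.41% rose in DN-POLG and 2.62% in AOX/NDI1 cells. TAF1D, a subunit of the RNA polymerase I factor SL1 that hosts several snoRNAs, rose by its 1 tested probe set. The change was 2.25 in DN-POLG (adjusted p = 5.73e-04) and 2.02 in AOX/NDI1 cells (adjusted p = 9.02e-04). Further TAF1D probe sets also carry snoRNA symbols and were not tested. EIF4G2, a translation initiation factor, rose by 2.84 (adjusted p = 0.00282) and 3.14 (adjusted p = 0.00108) by 1 of its 3 tested probe sets. The other 2 did not pass in either model, with -0.04 and 0.00056 in DN-POLG and -0.15 and 0.39 in AOX/NDI1 cells. The median log2 fold change over the probe sets of this list was 0.17 in DN-POLG and 0.27 in AOX/NDI1 cells, against 0.01 and -0.04 over all. Of 14 debranching and exosome genes, DIS3, an exosome nuclease, fell at DN-POLG day 9 by 1 of 5 probe sets (-0.86, adjusted p = 0.0192), none passed at AOX/NDI1 day 9, and EXOSC2, an exosome subunit, rose in 143B rho0 cells by 1 of 2 (1.23, adjusted p = 0.0358). Of the marker lists, EYA1 fell at day 9 in DN-POLG (-1.73) and AOX/NDI1 cells (-1.22), and SPARC (1.79, by 1 of 2 probe sets) and CD44 (2.36, by 1 of 13) rose in rho0 cells, and their part in the members' values was not tested.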

How the data were processed

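The deposited values are signal intensities on a linear scale, which the authors computed by MAS5 (Affymetrix Expression Console). Every array had a trimmed mean of 500.1 with the outer 2% left out. Log2 was taken with nothing added, and there were no missing values. Of 35 member probe sets, 34 matched RefSeq by Entrez ID and 0 symbols changed. Probe sets with 1 symbol and a mean log2 signal at or above the median of all probe sets over the arrays of the line were tested with limma 3.58.1 in R 4.3.3 (linear model, moderated variance, Benjamini-Hochberg over 22246 probe sets in HEK293 and 22511 in 143B, threshold 0.05). The 18 HEK293 arrays entered a model of 6 group means while the 6 from 143B were fitted apart. The number of arrays limits the precision. The code was tested on simulated data.

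The members and lists were chosen with earlier results of these data known. Values on every array are given for members that passed (up to 5 in each direction, smallest p) and for the brightest probe set, by mean log2 signal, of GAS5 and of 6 SNHG genes. All probe sets above the filter are named where a member gene passed, and of each list up to 3 genes, with how many of their tested probe sets passed. SNORA21, SNORA71B, SNORD8, SNORD89, SCARNA2, SCARNA15 and SCARNA17, the SNORA68 of the closing section and the host probe sets were named after their values were seen.

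The tests were unpaired, with the replicate number as a block only as an alternative. The study describes a shared starter culture for each round of HEK293 cultures. Deviations of same-numbered arrays from their group means correlated at 0.35 to 0.53 between DN-POLG days 0 and 3 and 0.17 to 0.22 between days 0 and 6, but at -0.35 to 0.04 between days 0 and 9 and -0.05 to 0.08 in AOX/NDI1 cells. For 143B no source says that numbers pair samples. Promoter sequences are from RefSeq (GRCh38.p14). The host of 1 member is not reported here. Alternatives were quantile normalization, one median for all arrays, log2(signal + 16), no filter, a filter at the 75th percentile, no probe sets ending in _x_at or _s_at, only the arrays compared, the replicate block, an ANOVA and each array left out. The ANOVA, the test the methods name, was the same model without moderated variance on the same filtered probe sets, not the study's own run.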

Additional observations from a re-analysis of the deposited data

How the results depend on the processing

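SNORA72 kept its direction and its call at day 9 in both HEK293 models wherever it was tested (log2 fold change 3.03 to 3.51 in DN-POLG and 2.76 to 3.11 in AOX/NDI1 cells, and 3.06 to 3.74 and 2.65 to 3.17 without single arrays). The filter at the 75th percentile leaves out SNORA72, SNORA78 and SNHG27. For DN-POLG day 9, 2 members passed, against 1 with no filter, 0 with the stricter filter, 1 with the replicate block, 1 with only the arrays compared, 1 in the ANOVA and 1 to 3 without single arrays. For AOX/NDI1 day 9, 1 passed, against 2 with one median, 2 with log2(signal + 16), 0 with the stricter filter, 2 without _x_at and _s_at probe sets, 2 with only the arrays compared and 1 to 2 without single arrays. For 143B, 1 passed, against 2 with one median, 2 with no filter, 0 with the stricter filter, 0 without _x_at and _s_at probe sets (SNHG27 is left out), 0 in the ANOVA and 1 to 6 without single arrays. The share of all tested probe sets that passed moved too, from 2.01% (only the arrays compared) to 12.6% at DN-POLG day 9, from 4.35% (no filter) to 34.6% (only the arrays compared) at AOX/NDI1 day 9, and in 143B from 0.413% (ANOVA) and 1.1% (no filter) to 26.3% (without rho0 replicate 3, where 6 members passed). The other 4 comparisons gave 0 members throughout, and the cause of the changes was otherwise not tested. The block changed no call but that of SNORA78 at DN-POLG day 9, and in 143B, where it rests on numbers alone, it left the count at 1. SNORA78 at AOX/NDI1 day 9 passed with one median (adjusted p = 0.0384), log2(signal + 16) (0.0335), without _x_at and _s_at probe sets (0.0469) and with only the arrays compared (0.00765). Small differences turned sign: SNHG33 (236798_at) at AOX/NDI1 day 9 was 0.11 with quantile normalization, 0.10 with one median and -0.13 to 0.083 without single arrays. Without single arrays SNHG17 was -0.10 to 0.23 at DN-POLG day 9 and -0.14 to 0.15 at AOX/NDI1 day 9, SNHG4 -0.43 to 0.16 and -0.13 to 0.52, and GAS5 in 143B -0.0013 to 0.55. One median moved the share of higher calls among all probe sets at DN-POLG day 6 to 64.3%, against 23.1% as deposited, and at AOX/NDI1 day 9 to 38.6%, against 21.1%.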

Other observations

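Some members that no comparison tested in HEK293 were measurable in 143B. SNORA71A (1565858_at) gave 448, 400.2 and 177 in rho0 and 355, 114 and 124 in rho+ cells, and its second probe set (1565859_at) 55.1, 75.1 and 55.3 in rho0 and 163, 79.4 and 72.6 in rho+ cells. SNORA65, which lies in RPL12, gave 362, 286 and 82.2 in rho0 and 189.5, 119 and 224 in rho+ cells. In SNORA71A (1565858_at), SNORA71B, SNORA74A (1567679_at), SNORA65 and SNORA72, as in SNORA68 with 119, 174 and 76.0, replicate 3 was the lowest of the rho0 arrays. In other members, such as SNHG19, SNHG32, SNORD89 and both probe sets of SNHG27 and of SNHG33, it was the highest of them. The ACTB ratio of rho0 replicate 3, 5.53, was the lowest of the 6 arrays of 143B, and its part in these values was not tested.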
